A study of Mus musculus with 6 samples.

Results

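Granins and prohormone processing enzymes were examined in RNA sequencing of intestinal crypts from WT and Mtg16−/− mice. The 10 genes were a named list, Chga, Chgb, Scg2, Scg3, Scg5, Pcsk1, Pcsk1n, Pcsk2, Cpe and Vgf, taken by symbol from a table of 24736 gene symbols, and all 10 were found in it. Each genotype was represented by 3 libraries from male mice aged 12 weeks, with crypts released from the whole length of the gut by 30 minutes in 2 mM EDTA. Labels for the knockout libraries name a CRISPR-induced deletion, whereas the study's methods describe donated Mtg16−/− animals, so the allele is uncertain, and the sources used here give no strain for either genotype. Values were TPM, a level scaled by gene length and by the library's total, which keep no read number, so the sequencing depth is unknown.

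Granins are acidic proteins that are packed with peptide hormones into the dense-core granules of endocrine cells and neurons. Inside the granule, prohormone convertases cut the hormone precursors after basic residues, and a carboxypeptidase then trims these residues from the new ends. In the intestine, the machinery is known from enteroendocrine cells, the hormone-secreting lineage that arises in the crypt, and chromogranin A is a common marker of that lineage.

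Cbfa2t3, the gene that encodes MTG16, was examined first. Its level was 3.67, 6.69 and 4.52 TPM in WT replicates 1 to 3 and 4.62, 6.43 and 3.23 TPM in the libraries labelled Mtg16−/−. The groups overlapped (exact two-sided permutation p = 0.8, n = 3 per group), so the level of the targeted transcript did not separate the genotypes, and every direction given here rests on the labels. The tissue label was checked with 12 markers of intestinal epithelium, of which Krt19 and Krt8, both epithelial keratins, averaged 3272 and 3023 TPM over the 6 libraries.

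For 8 members, all 3 Mtg16−/− values lay above all 3 WT values: Chga, Chgb, Scg2, Scg3, Scg5, Pcsk1, Pcsk1n and Cpe. No member had all Mtg16−/− values below the WT values, Vgf overlapped, and Pcsk2 was listed at 0 in each library. Among the 17505 symbols with a value above 0 in any library, 8.58% were separated in the same upward direction. The count describes the named genes and is not a test. These genes and the lists compared below were chosen with earlier results of these data known. In bulk crypts, more cells that express these genes, fewer other cells and more RNA per cell cannot be told apart.

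**Figure D1:**
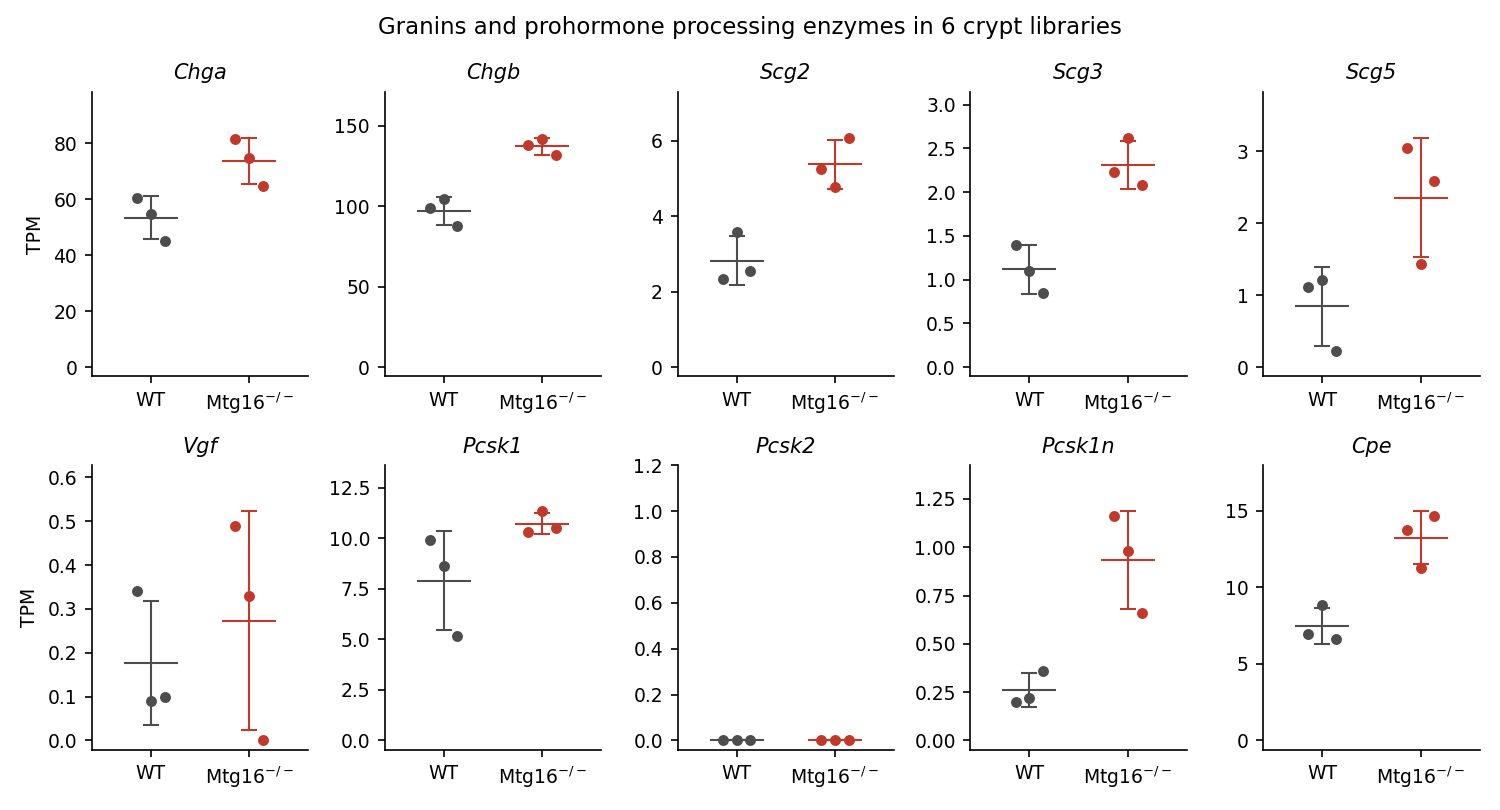
TPM of each of the 10 members (vertical axes, separate linear scales) in the 3 WT and the 3 Mtg16−/− libraries; points are libraries, and horizontal and vertical bars are the mean and SD. The groups do not overlap for 8 members, all higher in the libraries labelled Mtg16−/−, while Vgf overlaps and Pcsk2 is listed at 0.

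Chga and Chgb, the classical chromogranins, had the highest levels of the 10 members in each library. Chga (chr12:102554941-102565027, GRCm38.p6, RefSeq gene model) was at 60.4, 54.7 and 45.0 TPM in WT replicates 1 to 3 and at 81.3, 74.6 and 64.8 TPM in Mtg16−/− replicates 1 to 3. The groups did not overlap, although the lowest Mtg16−/− value lay close to the highest WT value. Means were 53.4 ± 7.80 TPM in WT and 73.5 ± 8.30 TPM in Mtg16−/− (SD, n = 3), a ratio of 1.38 and a log2 fold change of 0.46 on the log2(TPM + 1) scale with a standard error of 0.15. Chgb (chr2:132781642-132795079) was at 98.7, 104 and 87.6 TPM in WT and at 138, 142 and 132 TPM in Mtg16−/−. The Chgb groups were farther apart for their spread than those of Chga, with means of 96.9 ± 8.56 and 137 ± 5.22 TPM (SD, n = 3) and a log2 fold change of 0.50 with a standard error of 0.12.

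The secretogranins were much less abundant. Scg2, whose product is cut into peptides such as secretoneurin (chr1:79434366-79440026), was at 2.34, 3.57 and 2.56 TPM in WT and at 5.25, 4.78 and 6.07 TPM in Mtg16−/−. All Mtg16−/− values lay above all WT values, with a log2 fold change of 0.74 and a standard error of 0.19. Scg3, a granin that binds chromogranin A and the granule membrane (chr9:75643366-75685959), was at 1.40, 1.10 and 0.85 TPM in WT and at 2.23, 2.62 and 2.08 TPM in Mtg16−/−. These groups were also separate, and the log2 fold change was 0.65 with a standard error of 0.21. With a pseudocount of 0.1 in place of 1, the log2 fold change of Scg3 was 1.00, since the pseudocount shrinks differences between low values. Vgf, a granin-like precursor of several neuropeptides (chr5:137025301-137033351), was at 0.34, 0.09 and 0.10 TPM in WT and at 0.49, 0.33 and 0.00 TPM in Mtg16−/−. The Vgf groups overlapped (exact two-sided permutation p = 0.7), at levels where TPM without read numbers cannot tell a low level from none.

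Of the convertases, Pcsk1 was present and Pcsk2 was listed at 0. Pcsk1, which encodes prohormone convertase 1/3 (chr13:75089420-75134861), was at 9.94, 8.61 and 5.17 TPM in WT and at 10.3, 11.4 and 10.5 TPM in Mtg16−/−. The groups were separate by a small margin, and the WT libraries were spread more widely than the Mtg16−/− libraries, with SDs of 2.46 and 0.539 TPM around means of 7.91 and 10.7 TPM (n = 3). The log2 fold change of Pcsk1 was 0.44 with a standard error of 0.22, and it was 0.19 without WT replicate 3, the lowest library. Pcsk2, which encodes prohormone convertase 2 (chr2:143546133-143816284), was listed at 0 TPM in all 6 libraries, so it has no fold change that can be interpreted.

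Each convertase has a small granin-like binding partner, and both partners had low levels. Scg5 encodes 7B2, the chaperone that the precursor of convertase 2 needs to become active (chr2:113776313-113829091). It was at 1.11, 1.22 and 0.22 TPM in WT and at 3.05, 1.44 and 2.59 TPM in Mtg16−/−, so that it was recorded in each library in which Pcsk2 was listed at 0. The groups were separate, but WT replicate 3 and Mtg16−/− replicate 2 lay apart from the rest of their groups, and the log2 fold change of 0.88 had the widest standard error of the tested members, 0.32. With a pseudocount of 0.1 it was 1.56. Pcsk1n encodes proSAAS, an inhibitor of convertase 1/3 (chrX:7919822-7924410), and was at 0.20, 0.22 and 0.36 TPM in WT and at 1.16, 0.98 and 0.66 TPM in Mtg16−/−. Its groups were separate, with means of 0.260 ± 0.0872 and 0.933 ± 0.253 TPM (SD, n = 3). The ratio of these means was 3.59, whereas the log2 fold change after adding 1 was 0.61, since that scale understates the change of low genes, and it was 1.52 with a pseudocount of 0.1. The RefSeq gene model of Eras overlaps that of Pcsk1n, and Eras reached at most 0.26 TPM.

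Cpe encodes carboxypeptidase E, the enzyme that removes the basic residues left by the convertases (chr8:64592542-64693109). It was at 6.93, 8.84 and 6.66 TPM in WT and at 13.8, 11.3 and 14.7 TPM in Mtg16−/−. The groups were well separated, with means of 7.48 ± 1.19 and 13.2 ± 1.74 TPM (SD, n = 3), a ratio of 1.77. The log2 fold change was 0.75 with a standard error of 0.17, and the adjusted p of 0.224 in limma's moderated test was the lowest of the tested members.

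The test covered 12268 genes with a mean of at least 1 TPM over the 6 libraries, and 7 of the 10 members were among them. Pcsk1n, Vgf and Pcsk2 fell below that limit, and Scg5 passed it although its WT mean was 0.85 TPM. With limma's moderated test, 0 of the 7 tested members were called at an adjusted p under 0.1, and 4 genes were called in all, 0.0326% of those tested. Adjusted p-values of the tested members lay between 0.224 and 0.394. At an unadjusted limma p under 0.05, 6 of the 7 were higher in Mtg16−/−, all but Pcsk1, against 6.53% of the tested genes. Without WT replicate 3 the count was 3 of the 7, and no share of all tested genes is given for that fit. The exact permutation p of each of the 8 separate members was 0.1, the smallest that 3 against 3 libraries allow.

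The median log2 fold change was 0.65 over the 7 tested members, 0.61 over the 9 members above 0 and 0.56 over all 10 with Pcsk2 entered at 0, beside −0.0259 over all tested genes. The summed level of the 10 members was 181, 183 and 149 TPM in WT and 256, 249 and 233 TPM in Mtg16−/−. The sums followed the 2 chromogranins, which made up 87.1% to 89.3% of them in WT and 84.3% to 86.8% in Mtg16−/−. Within a genotype, the members did not all move from library to library in the same way. WT replicate 3 held the lowest WT value of 6 of the 9 members recorded above 0 (Chga, Chgb, Scg3, Pcsk1, Cpe and Scg5), but the highest WT value of Pcsk1n. Mtg16−/− replicate 3 held the lowest value of 5 members and the highest of Scg2 and Cpe.

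TPM is scaled by gene length, so levels can be ordered between genes. In WT, the order was Chgb, Chga, Pcsk1, Cpe, Scg2, Scg3, Scg5, Pcsk1n, Vgf and Pcsk2, and the ranges of Pcsk1 and Cpe, of Scg3 and Scg5, of Scg5 and Pcsk1n, and of Pcsk1n and Vgf overlapped. In Mtg16−/−, Cpe stood above Pcsk1 and Scg5 above Scg3 by their means, but both pairs overlapped, so the order of the members did not differ beyond the spread between libraries. Chgb was above Chga without overlap in both genotypes.

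Ratios between members within a library were compared to ask whether 2 members differed by unequal amounts between genotypes. The mean log2 ratio of Chgb to Chga was 0.85 in WT and 0.90 in Mtg16−/−, a difference of 0.0417, smaller than the SD of 0.14 between WT libraries (exact two-sided permutation p = 0.7). Its sign turned in the other direction when WT replicate 1 (−0.0367) or Mtg16−/− replicate 3 (−0.0161) was left out. The log2 ratio of Cpe to Chga was −2.68 in WT and −2.39 in Mtg16−/− (exact permutation p = 0.4), a difference of 0.29 that was 0.15 without WT replicate 1 and 0.13 without Mtg16−/− replicate 3. The log2 ratio of Scg2 to Chga was −3.83 and −3.55 (exact permutation p = 0.6), and its difference of 0.29 was 0.45 with a pseudocount of 0.1, 0.10 without WT replicate 1 and 0.12 without Mtg16−/− replicate 3. For Pcsk1n to Pcsk1, the means were −2.78 and −2.61 (exact permutation p = 0.7), and their difference of 0.17 was −0.0297 without WT replicate 1, 0.0757 without WT replicate 2, 0.47 without WT replicate 3, 0.0647 without Mtg16−/− replicate 1 and 0.27 without Mtg16−/− replicate 3. Since 1 was added to each TPM and Pcsk1n averaged 0.260 TPM in WT, the added value dominates this ratio, and with a pseudocount of 0.1 the difference was 1.03 (exact permutation p = 0.2). Adjusted over the 4 ratios, each exact permutation p was 0.7. Since 3 against 3 libraries allow no exact p below 0.1, this test could not call a ratio at an adjusted p under 0.1. Whether a ratio between members differed between genotypes is therefore not decided.

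The hormone precursors that this machinery serves were compared from a list of 14 enteroendocrine peptide hormones. Of the 11 tested, 0 were called, 11 had a positive log2 fold change and 7 were separate and higher in Mtg16−/−, against 9.94% of all tested genes. Their median log2 fold change was 0.51. Gcg, the precursor of glucagon-like peptides, was at 35.0, 39.3 and 29.1 TPM in WT and 70.7, 68.8 and 93.9 TPM in Mtg16−/− (ratio of means 2.26, limma adjusted p 0.104). Gip, the most abundant hormone of the list, overlapped between genotypes, with means of 131 ± 22.4 and 136 ± 27.7 TPM (SD, n = 3). Of 16 tested transcription factors of the enteroendocrine lineage, 0 were called, with a median log2 fold change of 0.53. Of these 16, 2 passed the limit for testing although their WT mean was under 1 TPM, Isl1 and Pax6. Pax6 is named here after its values were seen. Of all 20 in that list, tested or not, 13 were separate and higher, against 8.58% of all symbols above 0.

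No gene of the lists around the members, those of the granule, of processing and of serotonin synthesis, was called. Of 24 tested genes of the dense-core granule membrane and of release, 0 were called, 13 had a positive and 11 a negative log2 fold change, and the median was 0.04. Of the 24, 6 were separate and higher, against 9.94% of all tested genes, and 1 was separate and lower (Scamp5), against 11.1%. At an unadjusted limma p under 0.05, 6 of the 24 were higher, against 6.53% of all tested genes, and 0 were lower. Scgn (secretagogin, a calcium sensor of endocrine cells), Syt13 and Cplx2 had the largest differences, with log2 fold changes of 0.74, 0.60 and 0.59. Of 11 other tested proprotein processing enzymes, 0 were called, 1 was separate and higher (Pam, the enzyme that amidates peptide ends, named after its values were seen) and 3 were separate and lower, against 11.1% of all tested genes that were separate and lower. The convertase genes Pcsk5 and Pcsk6 were among these, with log2 fold changes of −0.68 and −0.60. Among 4 genes of serotonin synthesis, 0 were called, and Gch1, which makes the cofactor of the rate-limiting step, was separate and lower (log2 fold change −0.50). Tph1, the rate-limiting enzyme in the gut, overlapped (9.73 ± 3.60 and 13.4 ± 2.06 TPM, SD, n = 3).

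**Figure D2:**
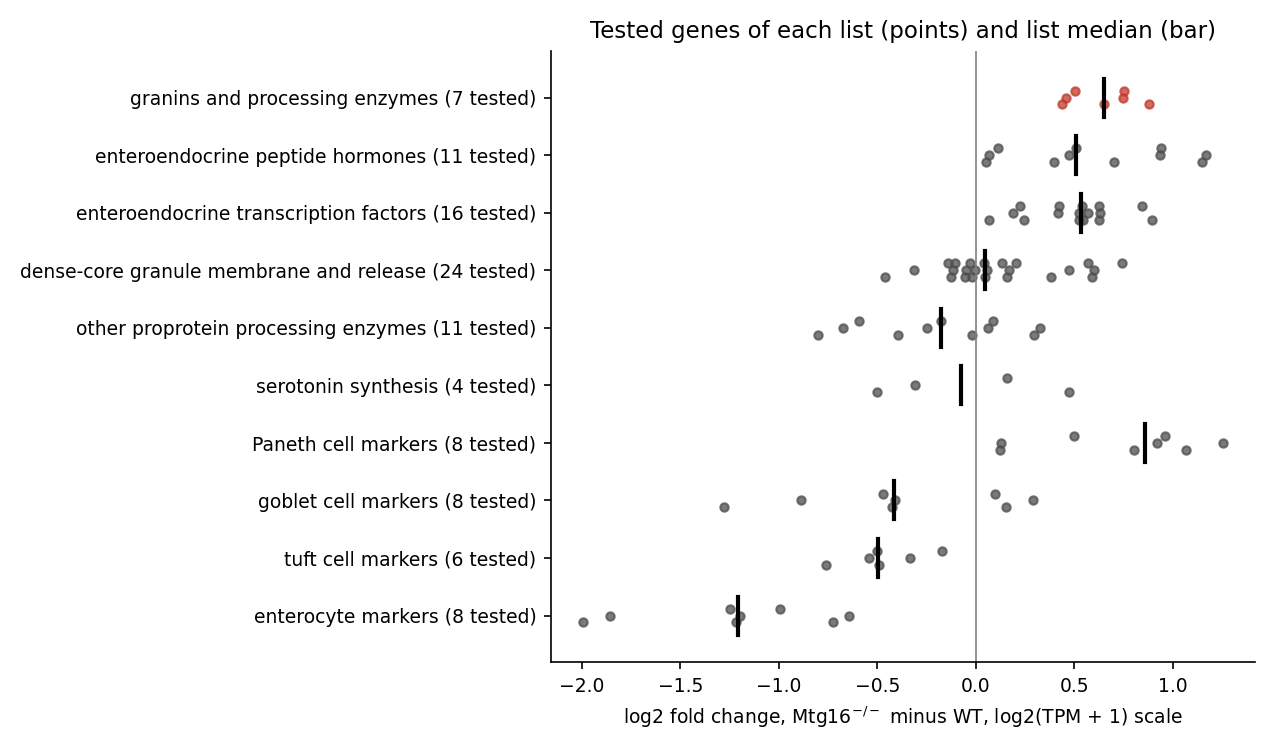
Log2 fold change (Mtg16−/− minus WT, on the log2(TPM + 1) scale, horizontal axis) of the tested genes of 10 lists; points are genes and black bars are list medians. The 7 tested members lie between 0.44 and 0.88, and the medians of the other lists run from −1.21 for enterocyte markers to 0.86 for Paneth cell markers.

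Granins are also made by neurons, so markers of enteric neurons were read in the same libraries. Of 16 markers, 1 passed the limit on low values, Gap43 was listed at 0 in each library, and 12, among them Elavl4, Stmn2 and Prph, averaged under 0.5 TPM. The summed neuron list was 3.75, 3.34 and 2.60 TPM in WT and 4.28, 5.0 and 4.91 TPM in Mtg16−/−, with Ret the most abundant. That sum was itself separate between genotypes. Of the 16 markers, 2 were separate and higher, against 8.58% of all symbols above 0: Nefl (0.11 to 0.27 TPM in WT and 0.32 to 0.40 TPM in Mtg16−/−) and Uchl1 (listed at 0 in WT and 0.16 to 0.58 TPM in Mtg16−/−). In each library the sum was below the levels of Chga, Chgb, Pcsk1 and Cpe and above those of Scg3, Scg5 and Pcsk1n, with Scg2 near it. This order sets a sum of markers beside single genes and gives no neuronal part of any member's level. Of other cell type lists, 8 Paneth cell markers summed to 2575, 5942 and 3608 TPM in WT and 8306, 6474 and 6605 TPM in Mtg16−/−, which were separate. The 8 enterocyte markers summed to 32345, 10930 and 13565 TPM and to 11041, 6088 and 5604 TPM, which overlapped. Lyz1 and Apoa1 were the most abundant genes of the Paneth and enterocyte lists, none of whose markers was at 0, and the part of the neuron, Paneth and enterocyte markers in the levels of the members was not tested.

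For Chga, Chgb and Pcsk1, the tested genes with the most similar profile over the 6 libraries were found by the root mean square difference between log2(TPM + 1) values centred on each gene's mean. Closest to Chga were 3632451O06Rik, Hyi and Dennd5a, at differences of 0.0678, 0.0911 and 0.0913. Closest to Chgb were E2f5, 4732490B19Rik and Plscr3, at 0.0585, 0.0623 and 0.0710, and closest to Pcsk1 were Zfp963, Mgat4c and 1700001O22Rik, at 0.0701, 0.0956 and 0.101. None of these genes belonged to the enteroendocrine lists, and a close profile over 6 libraries says nothing of shared control.

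Because 8 members were separate in the same direction, the promoters of the 10 members were searched for short motifs. RefSeq promoter windows held 300 bases, 250 before and 50 after an annotated transcript start on GRCm38.p6. They were found for 8 of the 10 members, all but Cpe and Vgf. These 8 are not the 8 separate members, since Cpe was separate and Pcsk2 was listed at 0 TPM. Both strands were searched for the E-box motif of basic helix-loop-helix factors, CANNTG, and for one of its forms, CAGCTG, whose matches are also matches to the general motif. The other motifs were the palindromic cAMP response element, TGACGTCA, its arm, TGACG, which lies inside it on both strands, and the TATA box, TATAAA. TGACGTCA was present in 3 of the 8 members, Chgb, Scg2 and Pcsk1, and in 1.79% of all 32851 windows. In these members it began 72, 68 and 78 bases before the annotated start. TGACG was present in 7 of the 8, all but Pcsk1n, and in 20.8% of all windows. The Scg3 window lies inside its RefSeq gene model, which begins farther upstream. Windows of the members held 49.3% to 76.3% G or C, and the shares over all windows were not matched for this.

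The stretches around these matches are shown because TGACGTCA was the rarest of the motifs searched. Each is 30 bases from RefSeq, read 5′ to 3′ on the strand of the gene, and capitals mark the match to TGACGTCA.
Chgb: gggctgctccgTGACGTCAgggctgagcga
Scg2: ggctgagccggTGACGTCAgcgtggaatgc
Pcsk1: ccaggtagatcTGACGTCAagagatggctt
The Chgb stretch lies at chr2:132781559-132781588 on the plus strand, the Scg2 stretch at chr1:79440076-79440105 on the minus strand and the Pcsk1 stretch at chr13:75089768-75089797 on the plus strand, all on GRCm38.p6. Annotations differ on where transcription starts: GENCODE vM21 has transcripts of Chgb and Scg2 that begin farther upstream, by 364 and 94 bases, so in GENCODE these matches fall in a 5′ untranslated exon, while the Pcsk1 match lies before its GENCODE transcripts and inside the longer RefSeq gene model, which begins upstream of the window's start.

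Chga had no full TGACGTCA in its window. Its single TGACG began 44 bases before the annotated start, at chr12:102554886-102554915 on the plus strand, shown with capitals on the 5 matching bases.
Chga: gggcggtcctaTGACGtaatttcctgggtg
The CAGCTG form of the E-box was present in 3 of the 8 members, Chga, Chgb and Pcsk2, against 16.3% of all windows, and the general form in 6 of the 8, against 72.3%. TATAAA was found in Chga alone of the 8 members, 6 bases after the annotated RefSeq start, and in 13.6% of all windows. The most upstream GENCODE start of Chga lies 28 bases farther downstream, so in GENCODE this match falls before the start. Pcsk2, listed at 0, carried the CAGCTG motif and the TGACG motif as well. A match is a stretch of letters and not a shown binding site, and no binding data were used here.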

How the data were processed

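Crypt RNA from 3 WT and 3 Mtg16−/− mice was sequenced after depletion of ribosomal RNA, with 1 library per mouse. The authors deposited TPM values per gene symbol, rounded to 2 decimals; the submitters' processing notes name cutadapt 1.9.1, STAR 2.5.2a, RSEM 1.3.0 and DESeq2 1.12.3, with the mm10 build, and give no roles. DESeq2 needs counts and was not used here. TPM keeps no read number, so no interval or detection limit that needs depth is given.

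Values were analysed as log2(TPM + 1). Genes with a mean of at least 1 TPM were tested with limma's moderated test (limma 3.58.1, intensity trend, R 4.3.3), Mtg16−/− minus WT, without covariates, with Benjamini-Hochberg adjustment over all 12268 tested genes and calls at an adjusted p under 0.1. The fit was tested on simulated data, with changes larger than those of the tested members. These were set only in genes above the levels of Scg2, Scg3 and Scg5. That check therefore does not tell whether changes of the members' size would be called. Single values were compared by exact two-sided permutation over the 6 libraries. The 2 planned ratios with Pcsk2 were left out, since Pcsk2 is listed at 0 throughout, and the adjustment ran over the other 4. The members and the gene lists were chosen with earlier results of these data known. Besides the members, the Cbfa2t3 transcript and the most similar profiles, the text names up to 4 tested genes per list with the largest absolute log2 fold change, up to 2 with the highest mean TPM, and markers at or near 0; some genes that this rule takes are not reported here. Lists covered peptide hormones, enteroendocrine transcription factors, granule and release genes, other processing enzymes, serotonin synthesis, and markers of epithelium, enteric neurons, enteric glia, mesenchyme, immune, Paneth, goblet and tuft cells and enterocytes. Positions and promoter windows came from RefSeq on GRCm38.p6, the assembly named mm10, and transcript starts also from GENCODE vM21. Alternatives changed the pseudocount, the limit on low values, the scaling, the moderation, the threshold, the replicate block and the libraries used.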

Additional observations from a re-analysis of the deposited data

How the results depend on the processing

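The count of 4 genes called among all 12268 tested moved under most alternatives. It was 0 with no filter on low values, 0 with median-ratio rescaling, 0 with quantile normalization, 0 without the intensity trend, 0 at an adjusted p under 0.05, 15 with a mean TPM of at least 5 and 20 with robust moderation. Leaving out 1 library gave 0 to 40 calls in limma: 40 without WT replicate 1, 9 without WT replicate 3, 1, 2 and 0 without Mtg16−/− replicates 1, 2 and 3, and 4 without WT replicate 2. Without Mtg16−/− replicate 3, where limma called 0 genes, 5 members had an unadjusted p under 0.05. No member was called in these fits. The count of members at an unadjusted p under 0.05 was 3 without WT replicate 3, and 3 of 4 tested with a mean TPM of at least 5. The share of all tested genes at that p and higher in Mtg16−/−, 6.53%, is given for the main fit alone. These counts from other fits therefore have no share to be read against. The median log2 fold change of the tested members, 0.65, was 0.82 with a pseudocount of 0.1 and 0.48 with a mean TPM of at least 5, where Scg2, Scg3 and Scg5 are not tested; it was 0.56 to 0.67 when 1 library was left out. Each tested member had a positive log2 fold change in each fit that included it. The ratio of Chgb to Chga differed between genotypes by −0.0367 (without WT replicate 1) to 0.11 when 1 library was left out, and by −0.0161 without Mtg16−/− replicate 3; that of Pcsk1n to Pcsk1 differed by −0.0297 (without WT replicate 1) to 0.47, and by 1.03 with a pseudocount of 0.1. Cpe to Chga differed by 0.13 to 0.41 and Scg2 to Chga by 0.10 to 0.40 when 1 library was left out, and by 0.35 and 0.45 with that pseudocount. The cause of these turns was not tested.

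With the replicate number as a replicate block, limma called 1201 of the 12268 tested genes. Of the 7 tested members it called 4, Chga, Chgb, Scg2 and Cpe. Same-numbered mice are different animals and nothing in the sources says they were handled together. After subtraction of the group mean, libraries with an equal number correlated across tested genes at 0.429, 0.0753 and 0.237 for numbers 1 to 3, so 2 of the 3 pairs exceeded 0.1. Of the 6 libraries, 5 correlated best with their own number, and WT replicate 2 correlated best with Mtg16−/− replicate 3, at 0.198. Since not every pair exceeded 0.1, the numbers were not taken as pairs, and the calls under the block are given as a hint from the data and not from the design.

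With 3 libraries per genotype and no read numbers, low members such as Pcsk1n, Vgf and Scg5 have levels of unknown counting error.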

Other observations

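Outside the hormone and granule genes, 4 genes were called by limma at an adjusted p of 0.0894 each. Ces1c, a carboxylesterase, ranged from 1.22 to 2.27 TPM in WT and from 8.55 to 12.0 TPM in Mtg16−/−, and Cirbp, an RNA-binding protein induced by cold, at 19.5, 24.1 and 22.0 TPM and 47.1, 51.5 and 58.3 TPM. Creld2, a protein of the endoplasmic reticulum, was at 104, 105 and 132 TPM in WT and 50.1, 50.4 and 51.0 TPM in Mtg16−/−, and Klhdc4 at 33.3, 39.3 and 43.7 TPM and 12.6, 16.2 and 15.9 TPM. These 4 were chosen by the test alone, and limma called 0 genes with median-ratio rescaling, with quantile normalization, without the intensity trend, without the filter on low values and without Mtg16−/− replicate 3.

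Of the 12 immune cell markers tested, 11 had a negative and 1 a positive log2 fold change, with a median of −0.42. Mcpt1, a protease of mucosal mast cells, was at 13.0, 15.2 and 8.64 TPM in WT and 0.96, 0.65 and 2.77 TPM in Mtg16−/− (limma adjusted p 0.104), while Jchain, the joining chain of secreted immunoglobulins, was at 7.56, 14.8 and 5.84 TPM and 35.5, 17.5 and 16.5 TPM (limma adjusted p 0.267). None of the 12 was called, Jchain was separate and higher, against 9.94% of all tested genes, and Mcpt1 and Mcpt2 were separate and lower, against 11.1%.

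Of the other cell type lists, none held a called gene. Their counts stand beside 9.94% of all tested genes separate and higher and 11.1% separate and lower. Goblet cell markers had a median log2 fold change of −0.42 (8 tested, with Zg16 and Clca1 separate and lower), tuft cell markers −0.50 (6 tested, with Avil separate and lower), enterocyte markers −1.21 (8 tested, with Fabp1, Apoa4 and Alpi separate and lower) and Paneth cell markers 0.86 (8 tested, with Lyz1, Ang4, Itln1 and Clps separate and higher). The 12 epithelium markers had a median of 0.07, with Krt18, Cdx2, Lgr5, Olfm4 and Lyz1 separate and higher. Alpi, Krt18, Cdx2 and Olfm4 are named here after their values were seen. Among mesenchyme markers, Lum was listed at 0 and 4 of 12 were tested (median 0.16), with Pdgfrb separate and lower. Acta2, below the limit for testing, was separate and higher, against 8.58% of all symbols above 0. It was at 0.21 to 0.43 TPM in WT and 0.49 to 0.83 TPM in Mtg16−/−. Of 6 markers of enteric glia, Sox10 and Fabp7 were listed at 0 and Erbb3, which epithelium also expresses, was the one tested (log2 fold change 0.06).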
